A study of Mus musculus with 2 samples.

Results

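The cells described here are C1q macrophages of the mouse temporomandibular joint (TMJ), the joint of the jaw. They are cells whose RNA holds the transcripts of *C1qa*, *C1qb* and *C1qc*, and they were chosen cell by cell from raw counts in 2 single-cell RNA sequencing (scRNA-Seq) libraries, a PBS control library and a library of CFA-injected joints. The rule kept barcodes with at least 500 genes, at most 10% of their UMIs (unique molecular identifiers, which count captured RNA molecules) from mitochondrial genes and at most 1% from 4 hemoglobin genes. Of the kept cells it took those with at least 5 UMIs of the C1q genes together. It then left out cells with 5 or more UMIs of *Mmp12*, *Dcstamp* and *Acp5* (genes of tissue-remodelling macrophages and osteoclasts), with 2% or more of their UMIs from *S100a8* and *S100a9* (neutrophils), with 2 or more UMIs of *Pecam1* and *Cdh5* (endothelial cells), or with 3 or more of *Dpt*, *Clec3b* and *Col14a1* (fibroblasts). This gave 175 of 4014 kept cells in the CFA library and 11 of 2667 in the PBS library, 186 of 6681 in all. The CFA cells carry most of what follows, and values over the 11 PBS cells are set beside them.

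Both groups were C57BL/6 WT mice of 8-10 weeks, and the methods state that females were injected at 8 weeks of age in both TMJs with 10 µL of PBS or of CFA (complete Freund's adjuvant, killed mycobacteria in oil) at 5 mg/mL. Joints were taken 3 weeks later, and the tissue of 3 mice per group was pooled into 1 library. The whole joint region was digested, and cells with CD45, the surface protein of leukocytes, were depleted on beads before loading. The leukocytes measured are therefore those that passed a depletion step, and shares of cells refer to the depleted suspension. With 1 library per condition there is no replicate check, so no p-value was computed, and a difference between the libraries cannot be told apart from one between 2 preparations.

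C1q is the recognition molecule of the classical complement pathway and is built from A, B and C chains. In tissues it is made mainly by resident macrophages, where it tags apoptotic cells and debris for uptake. Joint linings hold macrophages of several kinds, among them resident cells with the mannose receptor (*Mrc1*) and the folate receptor (*Folr2*), and cells that present peptides on MHC class II molecules with the help of the invariant chain (*Cd74*). Blood monocytes marked by *Ccr2* and *Ly6c2* enter inflamed tissue and can turn into macrophages there.

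The C1q genes form a compact group, as do the class II genes. On GRCm38 *C1qb* (136880129 to 136886187), *C1qc* (136889804 to 136893065) and *C1qa* (136895917 to 136898803) stand next to each other on the minus strand of chromosome 4. The class II genes *H2-Ab1* (34257689 to 34269419, plus strand), *H2-Aa* (34282744 to 34287823, minus strand) and *H2-Eb1* (34305867 to 34316674, plus strand) stand together on chromosome 17, while *Mrc1* (14229392 to 14332057) lies on the plus strand of chromosome 2. The stretches directly before the start sites are shown because these 3 sets of genes were carried unevenly by the C1q macrophages, as described below. They come from RefSeq (GRCm38.p6, up to 250 bases before the RefSeq start, 5′ to 3′ on the strand of the gene, without bases that GENCODE places inside the gene), which had an entry for 5 of the 7 genes looked up. Capitals mark the letters GAGGAA or their reverse complement TTCCTC, the core read by ETS factors such as PU.1, and ATTGG or its reverse complement CCAAT, the box found in class II promoters. The motifs do not overlap each other.
C1qb, chr4:136886201-136886450, minus strand: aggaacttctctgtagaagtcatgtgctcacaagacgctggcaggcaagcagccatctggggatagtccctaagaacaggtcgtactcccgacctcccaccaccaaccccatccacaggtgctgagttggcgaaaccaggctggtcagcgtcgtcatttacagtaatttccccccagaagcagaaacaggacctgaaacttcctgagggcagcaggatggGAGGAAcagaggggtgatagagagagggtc
C1qc, chr4:136893066-136893164, minus strand: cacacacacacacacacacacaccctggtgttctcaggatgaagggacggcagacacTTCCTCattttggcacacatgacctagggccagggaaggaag
Mrc1, chr2:14229164-14229391, plus strand: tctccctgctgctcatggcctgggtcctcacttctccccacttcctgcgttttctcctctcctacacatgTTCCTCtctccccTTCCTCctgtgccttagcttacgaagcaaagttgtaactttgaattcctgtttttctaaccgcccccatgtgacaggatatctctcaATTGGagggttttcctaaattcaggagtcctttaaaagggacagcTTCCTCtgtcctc
H2-Aa, chr17:34287824-34288073, minus strand: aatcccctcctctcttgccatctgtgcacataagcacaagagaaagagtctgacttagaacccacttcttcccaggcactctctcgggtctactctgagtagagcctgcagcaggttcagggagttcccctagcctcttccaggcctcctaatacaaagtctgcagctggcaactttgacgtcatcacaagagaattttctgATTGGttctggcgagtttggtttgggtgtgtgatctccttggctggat
H2-Eb1, chr17:34305617-34305866, plus strand: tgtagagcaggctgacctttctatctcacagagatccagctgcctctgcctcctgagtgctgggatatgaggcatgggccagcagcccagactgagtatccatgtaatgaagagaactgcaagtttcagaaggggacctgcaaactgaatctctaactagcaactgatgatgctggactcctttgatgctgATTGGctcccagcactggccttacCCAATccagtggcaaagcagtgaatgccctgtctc
The ETS letters stand 1 time in the *C1qb* window, 1 time in that of *C1qc* and 3 times in that of *Mrc1*, and in neither class II window. The CCAAT letters stand 1 time in the *H2-Aa* window, 2 times in that of *H2-Eb1* and 1 time in that of *Mrc1*. Of 32851 RefSeq promoter windows of 250 bases, 23.3% hold the ETS letters and 33.8% the CCAAT letters on either strand, and a match says only that the letters are present.

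C1q macrophages were 4.36% of the kept CFA cells (95% interval 3.75 to 5.04) and 0.412% of the kept PBS cells (0.206 to 0.737), a share 10.6 times higher in the CFA library (5.76 to 21.6). Intervals on shares are exact Clopper-Pearson intervals and those on ratios exact conditional binomial intervals, and all of them cover counting error only. The hemoglobin limit removed 3178 PBS and 339 CFA barcodes that passed the other limits, and 2 of these in each library would have passed the whole rule. Without that limit the ratio of the shares was 18.3, and with no UMI of *Mmp12*, *Dcstamp* and *Acp5* allowed it was 6.31. The libraries shared 10 barcode sequences, and 2 CFA members carried one of them, with 7510 and 11960 UMIs.

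The CFA members held between 858 and 32959 UMIs with a median of 11523, and the PBS members between 1129 and 38647 with a median of 9477. The median share of mitochondrial UMIs was 2.37% and 2.41%. The PBS member with the most UMIs gave 29.3% of all PBS member UMIs, so levels summed over the PBS members lean on that cell. Levels below are summed UMIs of a gene per 1000000 UMIs of the same cells (CPM). A gene was counted as higher or lower when its CPM differed at least 2-fold, and only genes for which both compared groups held 10 UMIs or more were tested in this way.

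The rule fixed the C1q level of these cells, so it is given as a description. In the CFA members the 3 chains together had a median of 64 UMIs per cell (5 to 363), or 0.62% of the UMIs of the cell (0.038 to 1.99%). In the PBS members the median was 107 UMIs (17 to 389), or 1.22% (0.276 to 2.39%), so the ranges overlapped over most of their length. Of the CFA members 7 sat just inside the limit with 5 or 6 C1q UMIs, and 15 CFA cells just outside it had 3 or 4 and met every other condition. On the other side, 29 members had 3 or 4 UMIs of *Mmp12*, *Dcstamp* and *Acp5*, 15 cells just outside had 5 or 6, and 95 members had 0. That limit took the most cells away, since it alone left out 186 of the 430 CFA cells with at least 5 C1q UMIs. All 3 chains were present in 164 of 175 CFA members and in 11 of 11 PBS members.

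**Figure D1:**
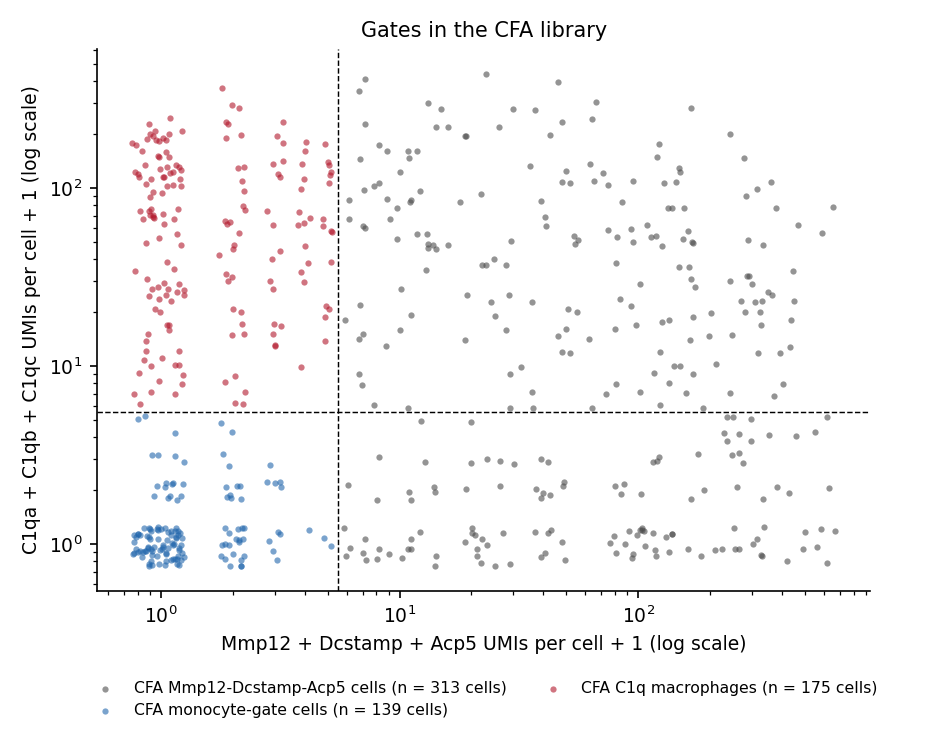
Each point is a kept CFA cell of 1 of 3 gates, placed by its UMIs of *Mmp12*, *Dcstamp* and *Acp5* plus 1 (x axis) and of *C1qa*, *C1qb* and *C1qc* plus 1 (y axis), both on log scales and with points spread slightly around their whole-number values and dashed lines that mark the limit of 5 UMIs. The 175 C1q macrophages lie at the upper left, the 139 monocyte-gate cells below them, and 186 of the 313 *Mmp12*-*Dcstamp*-*Acp5* cells to the right hold at least 5 C1q UMIs.

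Macrophage genes that the rule did not use were present in most members. *Lyz2* (lysozyme) was found in 175 of 175 CFA members, *Csf1r* (the receptor for the macrophage growth factor CSF1) in 162 and *Adgre1* (F4/80) in 147. Against all other kept CFA cells, 12 of the 15 macrophage core genes were at least 2-fold higher and 0 lower, with a median log2 ratio of 1.45. *Lyz2* was not among the 12. Over the 9449 genes compared, 9.36% were higher and 10.8% lower, with a median of -0.083. Of the cell types that the suspension could also hold, dendritic cells were represented by 7.29 CPM summed over 6 markers with *Cd209a* at 0 and no member with 5 or more such UMIs, and mast cells by 4.37 CPM with *Mcpt4* and *Cma1* at 0. Markers of T or NK cells (5 genes) summed to 37.9 CPM and those of B cells (5 genes) to 51.5 CPM, each with 4 members at 5 or more UMIs. Monocyte markers were not rare. The 6 markers summed to 1163.9 CPM, and 80 of the 175 members held at least 5 such UMIs, while in monocyte-gate cells they summed to 7145.5 CPM. Neutrophil markers (7 genes, 1116.8 CPM) reached 5 UMIs in 46 members, against 1195.7 CPM in monocyte-gate cells. These levels are partly fixed by the rule, which limited *S100a8* and *S100a9* of this list in both groups.

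Of the defining genes, *Cd74* and *Mrc1* were left free by the rule, and they behaved differently. *Cd74* had a UMI in 171 of the 175 CFA members. After every cell was thinned at random to 1000 UMIs it was found in 93.6% of them, against 16.6% of endothelial-gate cells. The endothelial-gate cells are set beside the members as another cell type of the suspension. Whether their UMIs of such genes are free RNA, RNA of joined macrophages or their own was not tested. *Mrc1* had a UMI in 78 of 175 members, and in 20.8% after thinning, against 0.504% of endothelial-gate cells. Median depths were 11523 UMIs in the members and 5120 in the endothelial-gate cells. So *Cd74* marked nearly every C1q macrophage of the CFA library, whereas *Mrc1* marked a part of them and had no UMI in 97 cells. All 11 PBS members had *Mrc1*, with 1 to 93 UMIs.

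The genes whose summed level stood furthest above that of the other kept CFA cells included monocyte-attracting chemokines, the mannose receptor, a complement receptor and class II genes. The chemokines came from a part of the members, with a UMI of *Ccl12* in 46, of *Ccl8* in 50 and of *Ccl7* in 52 of 175 cells. By the ranking rule for named genes, *Ccl12* stood at the top with 173.4 CPM in the members against 3.92 CPM elsewhere, a ratio of 44.3 (36.7 to 53.5). *Mrc1* followed with a ratio of 36.0 (32.7 to 39.6), *Ccl8* with 17.9 (16.5 to 19.5) and *C3ar1*, the receptor for the complement fragment C3a, with 11.4 (10.4 to 12.6). *Cd83*, a surface protein of antigen-presenting cells, had a ratio of 10.9, *Adgre1* of 9.95, *Ccl7* of 9.71 and *Fcgr1*, the high-affinity IgG receptor, of 9.16. The remainder of the 15 leading genes were *Arhgap22*, *Cd72*, *Ly86*, *Aif1*, *H2-Eb1*, *Calhm6* and *H2-Aa*, with ratios from 9.74 down to 7.42. Of 16 scavenger and resident receptors with enough UMIs, of 18 listed, 14 were higher and 1 (*Cd36*) lower. All 8 tested class II genes of 11 listed were higher, with a median log2 ratio of 2.76.

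**Figure D2:**
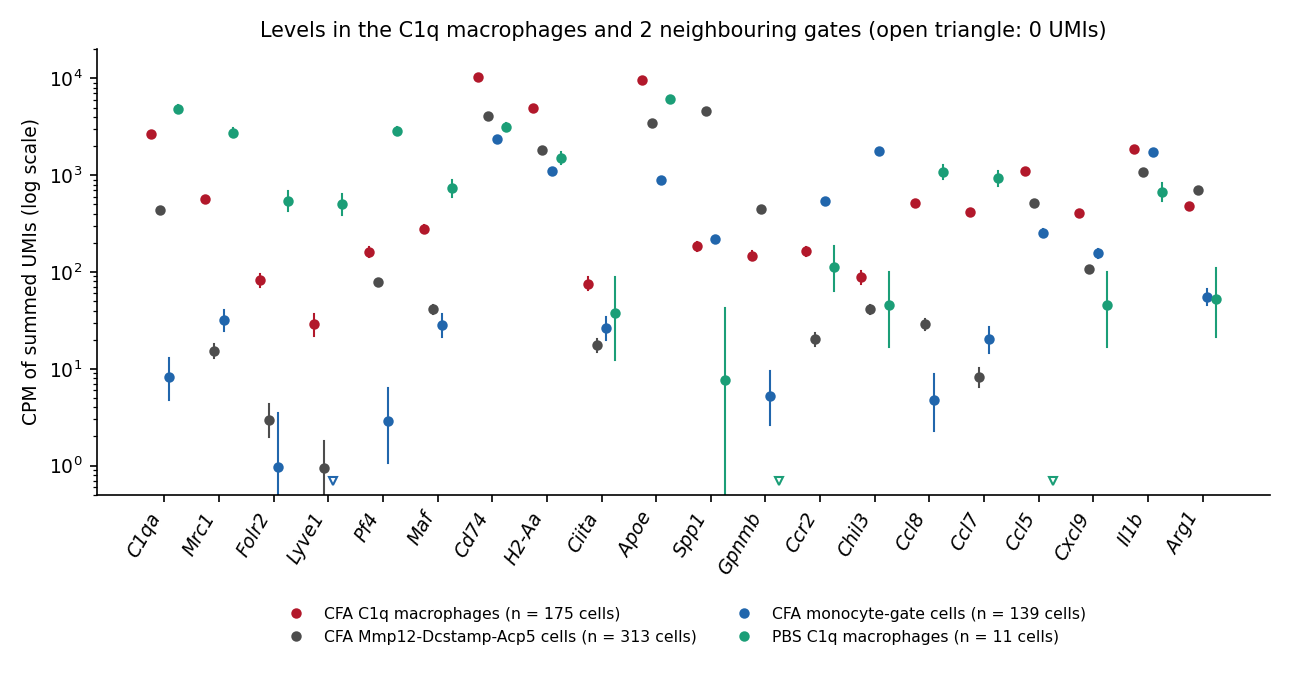
Levels of 20 genes (y axis, CPM of summed UMIs, log scale) in the CFA C1q macrophages, the 2 neighbouring CFA gates and the PBS C1q macrophages, with exact Poisson 95% intervals as bars and an open triangle for 0 UMIs. *Cd74* and *H2-Aa* are highest in the CFA C1q macrophages, while *Mrc1*, *Folr2*, *Lyve1* and *Pf4* are highest in the PBS C1q macrophages.

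Class II RNA was higher over the CFA than over the PBS members, although single cells of the groups overlapped. *H2-Aa*, the alpha chain of I-A, stood at 4983.9 CPM in the CFA members and had a UMI in 164 of 175 cells, with a median of 51 UMIs per cell and a highest of 224. In the PBS members it stood at 1501.0 CPM, present in 5 of 11 cells with a median of 0 and a highest of 118 UMIs. The CFA level was 3.32 times the PBS level (2.88 to 3.84). *Cd74*, the invariant chain that escorts class II molecules, reached 10412.7 CPM against 3176.3 CPM, a ratio of 3.28 (2.98 to 3.62). Its UMIs in the 11 PBS cells were 184, 146, 47, 30, 9 and 3, with 0 in the other 5 cells. Low and high cells therefore occurred side by side within the PBS members, and 2 cells held 78.8% of their *Cd74* and 82.3% of their *H2-Aa* UMIs.

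The rest of the class II pathway followed. All 7 genes with enough UMIs, of 11 listed, were at least 2-fold higher in the CFA members than in the PBS members, with a median log2 ratio of 1.73. Of the 2725 genes compared, 4.73% were higher and 14.9% lower, with a median of -0.26. With libraries scaled by the median ratio of genes instead of by total UMIs, the split of all genes moved from 129 higher and 406 lower to 210 and 265. Among the 7 were *H2-DMa* and *H2-DMb1*, which load peptides onto class II molecules, with ratios of 2.98 (1.8 to 5.36) and 4.81 (2.6 to 10.1), and *Ctss*, the cathepsin that trims the invariant chain, with 3.81 (3.25 to 4.5). Taken cell by cell, 6 class II genes made up 0.0122 to 6.69% of the UMIs of a CFA member with a median of 2.01%, and 0 to 3.31% of those of a PBS member with a median of 0.0422%. Only 11 of 175 CFA cells lay under 0.1%, against 6 of 11 PBS cells, and the groups overlapped.

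*Ciita*, the activator that switches on class II genes, had 75.8 CPM in the CFA members and 37.9 CPM in the PBS members, where its 5 UMIs were too few for a comparison. Dendritic cell markers summed to 7.29 CPM in the CFA and 37.9 CPM in the PBS members, and no cell of either group reached 5 such UMIs. B cell markers moved the other way, with 51.5 CPM in the CFA and 568.6 CPM in the PBS members, where 5 of 11 cells had at least 5 such UMIs. Monocyte markers stood at 1163.9 CPM in the CFA and 667.1 CPM in the PBS members, and their part in the class II difference was not tested. Hemoglobin and other erythrocyte markers summed to 317.2 CPM in the CFA and 940.0 CPM in the PBS members, and neutrophil markers to 1116.8 and 2850.4 CPM, the latter with 1 PBS cell at 5 or more UMIs. The part of these RNAs in the differences between the libraries was not tested either.

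Scavenger and resident receptors went in the opposite direction. Of 13 tested genes of the 18 listed, 0 were higher and 12 lower in the CFA members than in the PBS members, with a median log2 ratio of -2.52. *Mrc1* stood at 572.7 CPM against 2759.4 CPM, a ratio of 0.208 (0.184 to 0.234). *Folr2* stood at 82.6 CPM in 35 of 175 cells, against 545.8 CPM in 6 of 11 cells, a ratio of 0.151 (0.114 to 0.202). *Lyve1*, a hyaluronan receptor of perivascular macrophages, had 28.7 CPM in 12 cells against 500.3 CPM in 6 of 11 cells, a ratio of 0.0573 (0.0396 to 0.0826). Nearly all *Lyve1* cells were also *Folr2* cells. In the PBS members the same 6 cells held both, and in the CFA members 10 cells held both, 25 *Folr2* alone and 2 *Lyve1* alone.

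Others of the list were lower to different degrees. *Cd163*, the hemoglobin scavenger receptor, had 24.8 CPM in 7 CFA cells and 204.7 CPM in 6 PBS cells. *F13a1*, a clotting factor subunit of macrophages and monocytes, had 607.2 against 1955.8 CPM, and *Gas6*, a bridge between apoptotic cells and the receptors MERTK and AXL, 63.1 against 424.5 CPM. *Stab1*, a receptor that clears lipoproteins and debris, was the least changed of the 12 with a ratio of 0.461 (0.337 to 0.645). *Mgl2*, a lectin, had the lowest ratio of all genes by the ranking rule, 0.0143 (0.00761 to 0.0254), but 49 of its 67 PBS UMIs came from 1 cell, without which the ratio was 0.0378. *Msr1*, the class A scavenger receptor, was the member of the list that was not lower, with 180.2 against 91.0 CPM. *Vsig4*, a complement receptor of resident macrophages, had 70 UMIs in 5 CFA cells, 35 of them in 1 cell, and 0 UMIs in the PBS members, where 3 UMIs would be 22.7 CPM. *Pf4*, a chemokine of platelets and resident macrophages, was present in 53 of 175 CFA cells at 160.8 CPM and in 10 of 11 PBS cells at 2865.5 CPM, a ratio of 0.0561 (0.0483 to 0.0652).

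**Figure D3:**
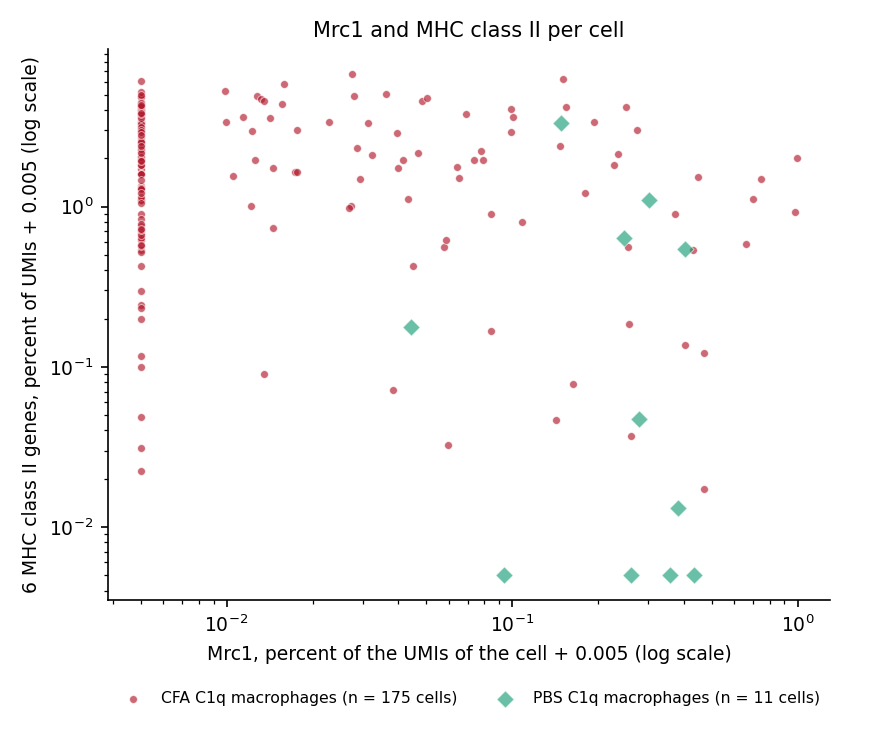
Each point is a C1q macrophage, placed by *Mrc1* UMIs (x axis) and UMIs of 6 MHC class II genes (y axis) as percent of the UMIs of the cell, with 0.005 added and both axes on log scales. The 97 CFA cells with no *Mrc1* form the column at the left, and the 4 PBS cells with no class II UMI lie along the bottom.

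By the ranking rule, the genes with the highest CFA to PBS ratios were *Slc7a11*, the cystine carrier, with 623.7 against 98.5 CPM (6.33, 3.69 to 11.9), *Pla2g7*, a secreted phospholipase, with 5.68 (3.54 to 9.78), *Ly6a* with 5.38 (3.63 to 8.33), *Cacna1d* with 5.29 and *AW112010* with 4.97. After *Mgl2*, the lowest were the endothelin receptor *Ednrb* with 0.0239, the ficolin *Fcna*, a lectin that starts complement, with 0.0345, *Rtn1* with 0.0452 and *Samd4* with 0.0475. The PBS UMIs of these genes were few. *Slc7a11* had 13, of which 4 were left without the largest PBS member. *Ly6a* had 25 PBS UMIs, all in 1 cell, whereas 136 of 175 CFA cells held it. *Ednrb* was present in 6 of 11 PBS cells and in 7 of 175 CFA cells.

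Chemokines did not move as a group. Of 13 tested of 20 listed, 2 were higher and 6 lower in the CFA than in the PBS members, with a median log2 ratio of -0.69. Among all genes 4.73% were higher and 14.9% lower. *Cxcl2*, which attracts neutrophils, stood at 3345.4 CPM in 149 of 175 CFA cells and at 1190.2 CPM in 5 of 11 PBS cells, a ratio of 2.81 (2.4 to 3.31). *Cxcl16*, which attracts CXCR6-bearing T cells, had a ratio of 2.57 (1.65 to 4.22). *Ccl5*, a T cell attractant, had 1093.4 CPM in 96 CFA cells and 0 UMIs in the PBS members, where 3 UMIs would be 22.7 CPM. The lower genes included the monocyte attractants *Ccl2*, with 142.3 against 727.8 CPM (0.196, 0.155 to 0.249), and *Ccl7*, with 421.2 against 924.9 CPM (0.455, 0.376 to 0.555). *Ccl8* stood at 518.8 against 1091.6 CPM, but 121 of its 144 PBS UMIs lay in 1 cell. The same PBS cell held 65 of the 122 *Ccl7* and 52 of the 96 *Ccl2* UMIs. Without the PBS member with the most UMIs, a check added after the values were seen, the log2 ratio of *Ccl8* turned from -1.07 to 1.07. *Ccl7* was then no longer past 2-fold (0.689, 0.527 to 0.918), *Ccl2* stayed lower (0.302, 0.219 to 0.424), and the ratio of *Cxcl2* was 6.24 (4.73 to 8.42). The list stood at 4 higher and 2 lower of 11.

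Among cytokines, *Il1b* was found in most CFA members. It had 1862.9 CPM in 124 of 175 cells, with a median of 7 and a highest of 214 UMIs. In the PBS members it had 674.7 CPM in 3 of 11 cells, and 2 of them held 98.9% of it, so the ratio of 2.76 (2.24 to 3.45) rests on those 2 cells and was 5.99 (4.16 to 8.96) without the larger of them. After thinning to 1000 UMIs, *Il1b* was found in 49.7% of CFA members against 2.82% of endothelial-gate cells. *Tnf*, with a median of 1 UMI per member, was found as counted in 59.4% of members and, at their lower depth, in 2.42% of endothelial-gate cells. *Tgfb1*, which restrains inflammation and drives fibrosis, was found as counted in 125 of 175 members. After thinning it was found in 11.6% of members and 10.4% of endothelial-gate cells, so at equal depth its detection was similar in both. Whether the endothelial-gate UMIs are free RNA or RNA of those cells was not tested. *Il1rn*, the antagonist that blocks the IL-1 receptor, was 2.08 times higher in the CFA members (1.29 to 3.6), but 1.47 times (0.91 to 2.54) without the largest PBS member. *Igf1*, a growth factor of resident macrophages, was lower with 65.1 against 219.8 CPM (0.296, 0.197 to 0.459). Over the list of 21, 13 were tested, 3 (*Il1b*, *Il1rn* and *Nos2*) were higher and 1 (*Igf1*) lower. *Nos2* too fell under the limit without the largest PBS member, from 2.71 to 1.92, so of the 3 only *Il1b* stayed past 2-fold. The median of -0.14 lay above that of all genes (-0.26), of which 4.73% were higher and 14.9% lower.

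For several other lists most tested genes stayed within the 2-fold limit against the PBS members. Over all genes of that comparison 4.73% were higher and 14.9% lower. Of 15 macrophage core genes 2 (*Aif1* and *Cd14*, the LPS co-receptor) were higher and 0 lower, with a median log2 ratio of 0.08. Without the largest PBS member the *Cd14* ratio of 2.13 was 1.92, under the limit. *Csf1r* differed little, with 556.2 against 576.1 CPM (ratio 0.965, 0.765 to 1.23). Of 20 tested lysosomal genes 3 (*Ctss*, *Ctsz* and *Psap*) were higher and 0 lower. Of 13 interferon-induced genes 2 were higher and 1 lower. Of 15 immediate early genes, which also mark the stress of tissue digestion, 0 were higher and 3 (*Ier2*, *Hspa1a* and *Hspa1b*) lower, and without that cell *Ier2* was no longer past 2-fold and the other 2 had under 10 UMIs. Among transcription factors *Maf*, which sustains the resident state, was lower with 279.8 against 735.3 CPM (0.381, 0.306 to 0.477), and *Cebpb*, a factor of inflammatory macrophages, higher with 1142.0 against 386.6 CPM (2.95, 2.24 to 3.98). *C3*, the central complement component, was higher at 3.13 (2.04 to 5.08). *Fcgrt*, which recycles IgG, stood at 62.7 against 682.3 CPM, a ratio of 0.0918 (0.0696 to 0.122).

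Next, the CFA members were set against the *Mmp12*-*Dcstamp*-*Acp5* cells of the CFA library (313 cells, 7.8% of the kept cells), whatever their C1q. Of these, 186 (59.4%) held at least 5 C1q UMIs and the others fewer. The genes of this gate mark tissue-remodelling macrophages and osteoclasts alike. The ratios below therefore cover a mixed group, and the part of its C1q-poor cells in them is not given here. Those cells were deeper, with a median of 28405 UMIs against 11523. Class II genes were higher in the C1q macrophages for 6 of 8 tested genes and lower for 0, with a median log2 ratio of 1.41. Over all 9395 genes, 13.0% were higher and 3.02% lower with a median of 0.31, and under scaling by the median ratio the 1224 higher and 284 lower genes became 711 and 537. *H2-Aa* was 2.77 times higher (2.7 to 2.83), *Cd74* 2.56 times (2.52 to 2.6) and *Ciita* 4.31 times (3.44 to 5.39). *Ctss* went the other way with 4453.4 against 6650.1 CPM. Scavenger and resident receptors were higher for 8 and lower for 1 of 11 tested genes, with *Mrc1* at 572.7 against 15.4 CPM (37.3, 31.3 to 44.6) and *Folr2* at 82.6 against 2.97 CPM (27.8, 18.6 to 43.1). *Cd36*, the fatty acid carrier, was the lower gene with 126.3 against 512.3 CPM.

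The C1q macrophages and the *Mmp12*-*Dcstamp*-*Acp5* cells also carried different chemokines. Of 18 tested 11 were higher and 4 lower, with a median log2 ratio of 1.3. The monocyte attractants led, with *Ccl7* at 421.2 against 8.16 CPM (51.6, 40.8 to 66.0), *Ccl12* at 173.4 against 4.13 CPM (a ratio of 41.9) and *Ccl2* at 142.3 against 7.1 CPM. Lower in the C1q macrophages were *Cxcl3* (0.0536), *Ccl6* (0.203), *Ccl9* (0.269) and *Cxcl14*. Interferon-induced genes were higher for 12 and lower for 0 of 18, with a median of 1.2. Over all genes 13.0% were higher and 3.02% lower, with a median of 0.31. The 12 included the antiviral *Isg15* with a ratio of 2.21 (1.97 to 2.48). Scaling by the median ratio lowers every log2 ratio of this comparison by 0.31, which leaves *Isg15* under the 2-fold limit. Of 10 other complement genes 6 were higher and 1 lower, led by *C4b* with 13.9 (9.67 to 20.2).

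Several lipid and lysosomal genes were lower in the C1q macrophages. Of 18 lipid genes 2 were higher and 8 lower, with a median log2 ratio of -0.73. The shares over all genes of this comparison were 13.0% higher and 3.02% lower, with a median of 0.31, and apply to the lists below too. *Apoe*, the main lipoprotein of macrophages, was higher with 9699.6 against 3436.7 CPM (2.82, 2.77 to 2.87), while *Lpl*, which frees fatty acids from lipoproteins, was lower with 43.2 against 953.6 CPM (0.0453, 0.0364 to 0.0559). Of 12 genes of the Trem2, Spp1 and Gpnmb type 1 (*Apoe*) was higher and 8 lower, with a median of -1.49. *Spp1*, osteopontin, had the lowest ratio of all genes by the ranking rule, with 183.6 against 4577.3 CPM (0.0401, 0.0362 to 0.0444). Among 22 lysosomal genes *Lgmn*, an asparagine endopeptidase, was higher, and 6 were lower, such as *Ctsd* with 1665.2 against 4969.2 CPM. Iron genes were lower for 5 and higher for 3 of 12, with *Fth1*, ferritin heavy chain, at 26924.0 against 66392.8 CPM and *Hmox1*, which breaks down heme, at 215.2 against 742.0 CPM. The osteoclast genes (1 higher and 6 lower of 8) include the genes that chose the groups and are given as a description.

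2 further names of that ranking came from few cells. *Elane* and *Prtn3*, granule proteases of myeloid precursors, had ratios of 73.3 and 15.3, but 361 of the 368 *Elane* UMIs and 215 of the 237 *Prtn3* UMIs of the members lay in 1 cell. Leaving out 2 members with 5 or more UMIs of *Elane*, *Prtn3* and *Mpo*, a check added after the values were seen, turned the *Elane* log2 ratio from 6.2 to -0.29. The other leading genes were *Mrc1*, *Psd3* (28.9), *Ccl8* (18.1), *Slc9a9* (13.2) and *Tmem176b* (12.9). The lowest after *Spp1* and *Lpl* included *H2-M2* (0.0567), the bridging protein *Mfge8* (0.0589), the osteoclast proton pump subunit *Atp6v0d2* (0.0733), *Clmp* (0.0746), *Epha4* (0.0934) and *Itgax*, the integrin CD11c (0.106).

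**Figure D4:**
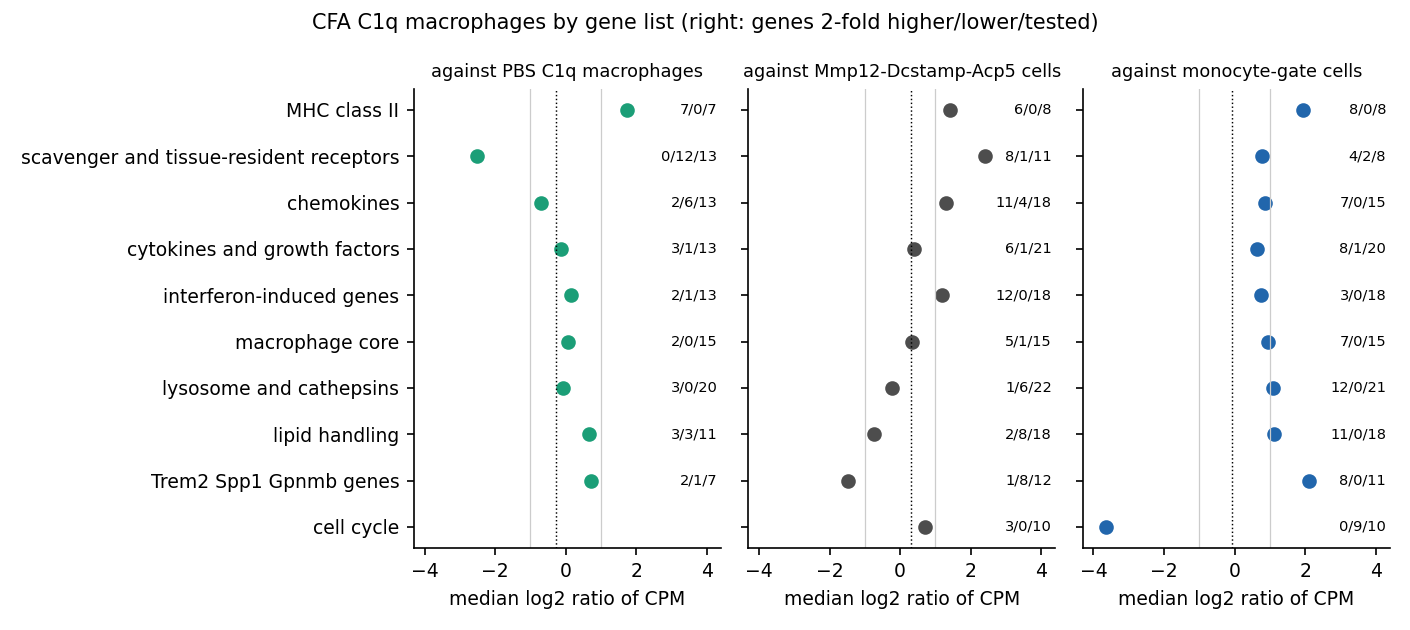
Median log2 ratio of CPM (x axis) over the tested genes of 10 gene lists, CFA C1q macrophages against the PBS C1q macrophages, the *Mmp12*-*Dcstamp*-*Acp5* cells and the monocyte-gate cells, with the median of all genes as a dotted line, 2-fold limits as grey lines, and the numbers of genes higher, lower and tested at the right. The class II median lies above the dotted line in all 3 panels (1.73, 1.41 and 1.95), while the scavenger median lies below it against the PBS cells (-2.52) and above it in the other panels.

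The monocyte gate held 139 CFA cells (3.46% of the kept cells, median 12587 UMIs) with at least 5 UMIs of *Ccr2* and *Ly6c2*, under 5 C1q UMIs and the other limits of the rule. Against them the C1q macrophages had more RNA of antigen presentation, lysosomes and lipid handling. Class II genes were higher for 8 of 8 tested, with a median log2 ratio of 1.95, the lysosomal genes for 12 and lower for 0 of 21 (median 1.08), and the lipid genes for 11 and lower for 0 of 18 (median 1.11). Over all 8856 genes 8.03% were higher and 8.02% lower, with a median of -0.074. *Mertk*, a receptor for apoptotic cells, stood at 400.3 against 18.7 CPM (21.4, 15.5 to 30.3), and *Apoe* at 9699.6 against 890.4 CPM (10.9, 10.4 to 11.4). *Ccl8* led the ranking with 518.8 against 4.79 CPM (108.3, 58.6 to 226.4), followed by *Gpnmb*, a lysosomal glycoprotein (28.0, 15.4 to 56.7), and *Timp2*, an inhibitor of matrix proteases (21.8, 14.5 to 34.3). *Ccl7*, *Mrc1*, *Ms4a7*, *Stab1*, *Pdpn* and *Zdhhc14* had ratios from 20.9 down to 12.2.

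*Il1b* and *Tnf* differed little from the monocyte gate. *Il1b* stood at 1862.9 against 1721.9 CPM (1.08, 1.03 to 1.13) and *Tnf* at 160.8 against 176.4 CPM (0.912, 0.784 to 1.06). *Il6* was lower in the C1q macrophages with 36.4 against 208.0 CPM, and its UMIs there came from 8 cells. *Arg1*, arginase, with 477.0 against 55.6 CPM (8.58, 7.07 to 10.5), and *Nos2*, the inducible nitric oxide synthase, with 226.4 against 43.1 CPM (5.25, 4.18 to 6.65), were higher. Of 20 tested cytokine genes 8 were higher and 1 lower, while 8.03% of all genes were higher and 8.02% lower.

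Cell cycle genes were lower in the C1q macrophages than in the monocyte gate, but not lower than in the *Mmp12*-*Dcstamp*-*Acp5* cells. Of 10 tested genes 0 were higher and 9 lower than in the monocyte gate, with a median log2 ratio of -3.65. *Top2a*, which untangles replicated DNA, had 10.7 against 260.2 CPM, and *Mki67* 31.1 against 196.5 CPM. Against the *Mmp12*-*Dcstamp*-*Acp5* cells, 3 of 10 (*Mki67*, *Rrm2* and *Mcm5*) were higher and 0 lower, with a median of 0.71. Over all genes 13.0% were higher, with a median of 0.31. These calls rest on few members, since *Mki67* had a UMI in 30, *Mcm5* in 11 and *Rrm2* in 3 of 175. Other genes at the low end were *Pclaf* (0.0277), *Ube2c* (0.0458) and *Chil3*, a lectin of monocytes (0.0495). *Jchain*, *Ibsp*, *Sparc* and *Mgp*, genes of plasma cells, bone cells and stroma, also ranked low, but nearly all their monocyte-gate UMIs lay in 1 cell each, 2059 of 2061 for *Jchain* and 3226 of 3257 for *Ibsp*. Without 2 such cells, a check added after the values were seen, the *Jchain* log2 ratio turned from -7.67 to 2.28.

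Of the genes linked to a lining barrier in joints, *Cx3cr1*, the fractalkine receptor, was found in 81 of 175 CFA members at 108.8 CPM, against 46.7 CPM in the *Mmp12*-*Dcstamp*-*Acp5* cells (2.33, 1.97 to 2.74) and 48.9 CPM in the monocyte gate (2.23, 1.75 to 2.84). In the PBS members it had 144.0 CPM in 2 of 11 cells, 14 of 19 UMIs in 1 of them. *Trem2*, a lipid-sensing receptor, was found in 135 members, and 66 members had both. *Cx3cr1* and *Igf1* were found together in 19 members. *Tjp1*, a tight junction protein, had a UMI in 2 members and *Cldn5* in 1. Of the list of 9 genes, 7 were tested against the other CFA cells, with 3 higher and 1 lower. Against the *Mmp12*-*Dcstamp*-*Acp5* cells 1 of 6 was higher and 0 lower. Against the monocyte gate 5 of 6 were higher and 1 (*Sparc*) lower, but nearly all monocyte-gate UMIs of *Sparc* lay in 1 cell, as described above. Against the PBS members 4 were tested, with 0 higher and 1 (*Igf1*) lower. In the same order of comparisons, 9.36%, 13.0%, 8.03% and 4.73% of all genes were higher, and 10.8%, 3.02%, 8.02% and 14.9% lower. With so few genes tested, these counts are not read as a result about the list.

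Among themselves, the CFA members varied widely in *Mrc1*. The 39 cells with 5 or more *Mrc1* UMIs (22.3% of the members) held 92.6% of its UMIs, 39 cells had 1 to 4 UMIs, and 97 cells had 0. Depth did not separate them, with median totals of 11068, 11690 and 11523 UMIs. The limit of 5 was set after the values were seen, and what follows is a description of 1 library. *Ccl8* stood at 1985.6 CPM in the 39 cells and at 32.0 CPM in the 97 cells without *Mrc1*. *Folr2* stood at 315.3 against 9.14 CPM, *Pf4* at 534.5 against 43.0 CPM and *Igf1* at 215.0 against 22.9 CPM. Several of these are the genes that were higher in the PBS members. All 39 cells had *C1qa*, *C1qb* and *C1qc*, and *C1qa* stood at 4200.8 against 2053.5 CPM. Low in the *Mrc1* cells were *Saa3*, an acute-phase protein (64.7 against 1506.7 CPM), *Ccl5* (223.4 against 1538.7 CPM), *Vegfa*, the vessel growth factor (37.6 against 309.9 CPM), *Ly6c2* (96.0 against 461.7 CPM) and *Slc7a11* (137.8 against 841.1 CPM). Class II genes differed less, with *H2-Aa* at 3647.5 against 5174.8 CPM.

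*Mrc1* was also never found at 5 or more UMIs together with *Arg1* or with *Cxcl9*, a chemokine induced by interferon gamma. Of the 175 CFA members 39 reached 5 UMIs of *Mrc1*, 25 of *Arg1* and 31 of *Cxcl9*. No cell reached it for *Mrc1* and *Arg1* or for *Mrc1* and *Cxcl9*, whereas 8 cells did for *Arg1* and *Cxcl9*. This left 17 cells with *Arg1* alone, 23 with *Cxcl9* alone and 88 cells (50.3%) with none of the 3. At a limit of 3 UMIs, 2 cells held *Mrc1* with *Arg1*, 3 held *Mrc1* with *Cxcl9* and 10 held *Arg1* with *Cxcl9*, and at 10 UMIs the counts were 0, 0 and 3. These 3 genes and limits were picked after the values were seen.

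The 3 sets of cells differed in other genes too. The 17 *Arg1* cells had the highest *Fn1*, fibronectin, at 2774.0 CPM, against 603.4 CPM in the *Mrc1* and 534.3 CPM in the *Cxcl9* cells. They also had the highest *Hp*, haptoglobin (581.0, 48.0 and 284.0 CPM in the *Arg1*, *Mrc1* and *Cxcl9* cells), and *Slc7a11* (1565.9, 137.8 and 835.2 CPM). The 23 *Cxcl9* cells had the highest class II level, with *H2-Aa* at 7669.0 CPM against 2710.2 CPM in the *Arg1* and 3647.5 CPM in the *Mrc1* cells. *Cd274*, the checkpoint ligand PD-L1, stood at 784.5 CPM in the *Cxcl9*, 506.6 CPM in the *Arg1* and 150.3 CPM in the *Mrc1* cells. *Ccl5* fell in that order too, with 2661.2, 1317.9 and 223.4 CPM. *Nos2* had 0 UMIs in the 39 *Mrc1* cells, 357.8 CPM in the *Arg1* cells and 564.7 CPM in the *Cxcl9* cells. *Il1b* was present in all 3 sets, at 580.4 CPM in the *Mrc1*, 2689.0 CPM in the *Arg1* and 3716.2 CPM in the *Cxcl9* cells. In the 88 cells with none of the 3 genes, *Il1b* (1698.0 CPM) and *H2-Aa* (5387.7 CPM) lay between the levels of the 3 sets. Not all genes did, since *Ccr2* was highest in the 88 cells at 224.3 CPM. It had 171.2 CPM in the *Mrc1*, 49.6 CPM in the *Arg1* and 118.3 CPM in the *Cxcl9* cells. The median total of the 88 cells was 10351.5 UMIs, against 11068 in the *Mrc1*, 15287 in the *Arg1* and 11960 in the *Cxcl9* cells.

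**Figure D5:**
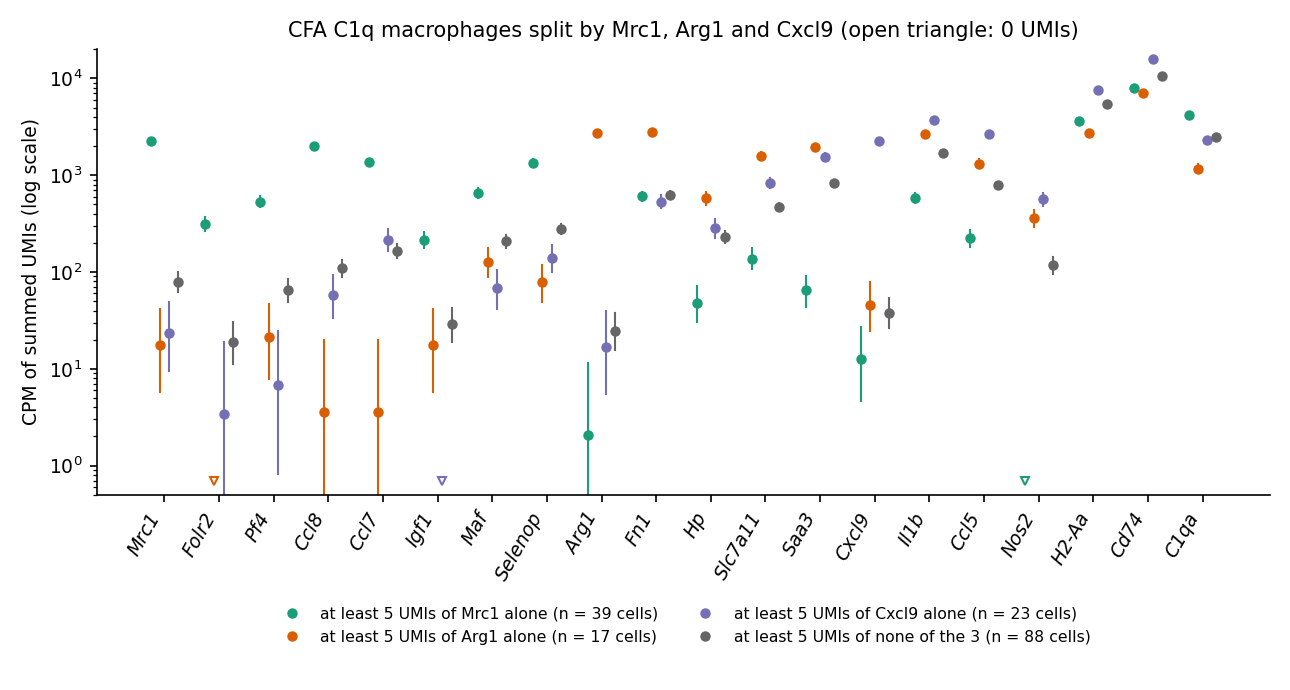
Levels of 20 genes (y axis, CPM of summed UMIs, log scale) in CFA C1q macrophages with at least 5 UMIs of *Mrc1*, *Arg1* or *Cxcl9* alone and of none of the 3, with exact Poisson 95% intervals as bars and an open triangle for 0 UMIs. *Folr2*, *Pf4*, *Ccl8* and *Igf1* are highest in the *Mrc1* cells, *Fn1* and *Hp* in the *Arg1* cells, and *Il1b*, *Ccl5*, *H2-Aa* and *Cd74* in the *Cxcl9* cells.

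When the CFA members were ranked by the C1q share of their UMIs and the ranking was cut into 3 parts of like size, *Mrc1* was 12.0 times higher in the top part than in the bottom part (9.36 to 15.7), and *Ccl8* 14.1 times. *Selenop*, a selenium carrier of resident macrophages, was 6.53 times higher and *Apoe* 1.93 times. *Il1b* (0.307, 0.279 to 0.337), *Arg1* (0.158, 0.126 to 0.195) and *Fn1* (0.392, 0.347 to 0.443) were lower in the top part. Other inflammatory genes did not follow them, since *Ccl2* (12.3, 7.57 to 21.1) and *Cxcl9* (2.13, 1.75 to 2.61) were higher in the top part and *Tnf* differed little (0.948, 0.72 to 1.25). Ranking by the class II share gave another order. *Mrc1* was then lower in the top part (0.207, 0.171 to 0.248), as were *Arg1* (0.161) and *Gpnmb* (0.0738), while *Cxcl9* (8.5), *Ciita* (6.46) and *Cx3cr1* (2.58) were higher. *Il1b* was 1.68 times higher in the top class II part. Over 173 members thinned to 1000 UMIs the class II genes varied together, with a Spearman rho of 0.79 between *H2-Aa* and *Cd74*. *C1qa* and *H2-Aa* gave 0.09, yet *H2-Aa* was 1.71 times higher in the top C1q part (1.63 to 1.79) and *C1qb* 2.1 times higher in the top class II part (1.96 to 2.25). Of 669 genes, *Pltp*, a phospholipid carrier (0.46), *Ifi27l2a* (0.4) and *Ly6e* (0.38) followed the summed C1q count most closely, and *Slc7a11* (-0.37) and *Hp* (-0.36) ran most against it. These cells share 1 library, and the coefficients are a description.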

How the data were processed

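Per the labels and the deposited files, each library is a 10x matrix of whole-number UMI counts per gene and barcode that the authors made, with Cell Ranger 7.0.1 and GRCm38 (mm10) named in the submitters' processing notes. Kept cells were chosen by the limits in the report, with no doublet caller, and 1 of the alternatives left out the 5% of cells with the highest UMI totals. The kept cells held 27201994 UMIs in the PBS and 44432717 UMIs in the CFA library, of which the C1q macrophages gave 131913 and 2058644.

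The members and the gene lists were chosen with earlier results of these data known. UMIs were summed over cells and scaled to CPM, and ratios were formed over genes with at least 10 UMIs in each group. Genes were named if they belonged to a list or ranked at an end of a comparison: the 15 highest against other CFA cells, the 10 at each end against each CFA gate and the 5 at each end against PBS cells. Ranked genes needed at least 100 CPM in a group, and gate, mitochondrial, ribosomal, hemoglobin, immunoglobulin, predicted and sex-linked genes were left out. The scripts were tested on simulated data and ran in Python 3.11.15 with numpy 2.4.6, scipy 1.17.1, pandas 2.3.3 and matplotlib 3.10.9. Gene positions come from the GENCODE annotation of GRCm38. Results for some genes are not reported here.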

Additional observations from a re-analysis of the deposited data

How the results depend on the processing

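No paired analysis was possible because each condition had 1 library. The share of C1q macrophages in the CFA library (4.36%) was 5.75% when the C1q limit was set on cells thinned to 1000 UMIs and 2.37% when *Mmp12*, *Dcstamp* and *Acp5* had to be 0. Counts of genes past 2-fold depended on the UMI minimum. With at least 30 UMIs per group, 429 genes in place of 1016 were lower against other CFA cells, 725 in place of 1224 higher and 185 in place of 284 lower against the *Mmp12*-*Dcstamp*-*Acp5* cells, 453 in place of 711 higher and 394 in place of 710 lower against the monocyte gate, and 35 in place of 129 higher and 118 in place of 406 lower against the PBS members. With at least 10 UMIs over both groups together 7470 genes were lower against other CFA cells and 1151 lower against the *Mmp12*-*Dcstamp*-*Acp5* cells, 1231 were higher and 1612 lower against the monocyte gate, and 2081 were higher and 1359 lower against the PBS members. Scaling by the median ratio gave 711 higher and 537 lower against the *Mmp12*-*Dcstamp*-*Acp5* cells and 210 and 265 against the PBS members. It shifted the median of all genes by the values given for them in the report, 0.31 and -0.26. With *Mmp12*, *Dcstamp* and *Acp5* at 0, 579 genes were lower against other CFA cells, and without the hemoglobin limit 334 were higher against the PBS members. Detection of *Mrc1* (20.8%) was 32.3% at 3000 UMIs and 44.6% as counted, and that of *Cd74* (93.6%) was 97.7% as counted. *Mrc1* by C1q share (12.0) was 5.64 with the members split at the median.

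Some directions reversed on the log2 scale. Against the *Mmp12*-*Dcstamp*-*Acp5* cells, *Elane* was -0.19 and *Prtn3* -0.01 with those 3 genes at 0, and *Elane* -0.29 without the 2 members that carry it. *Jchain* was 2.28 without 2 monocyte-gate cells. *Ccl8* against the PBS members was 1.07 without the cells of highest UMI totals and, equally, without the largest PBS member. In each case fewer cells were summed. Scavenger receptors higher against the *Mmp12*-*Dcstamp*-*Acp5* cells were 8 of 11, and 5 of 9 without the cells of highest UMI totals. Against the PBS members, the log2 ratio of *H2-Aa* ranged from 1.6 to 2.14, that of *Cd74* from 1.6 to 2.2 and that of *Mrc1* from -2.34 to -1.51 over the alternatives run. The 11 PBS cells limit every comparison with them.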
